A study of Homo sapiens with 2 samples.

Results

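The genes described here are 10 components of insulin and insulin-like growth factor (IGF) signalling: the binding proteins IGFBP1, IGFBP2, IGFBP3, IGFBP4 and IGFBP6, the receptors INSR, IGF1R and IGF2R, and the receptor substrates IRS1 and IRS2. They were chosen by name, and every probe set that the array annotation pairs with 1 of these symbols and no other was taken, which gave 25 of the 54675 probe sets on each array and 10 of 19775 named genes. The cells were PLC/PRF/5, a human line established from a hepatocellular carcinoma, and 1 Affymetrix U133 array was run per condition. In one condition the cells formed spheroids and were exposed to cisplatin and doxorubicin together, and the submitters call these chemoresistant hepatospheres. In the other, differentiated cells were obtained by giving serum (FBS) to spheroids and letting them attach. Serum, attachment and growth form changed together between the arrays, whether the drugs differed too is not given in the sources used here, and these factors cannot be told apart. With 1 array per condition there are no replicates, no difference has an error or a test, and every value compares these 2 arrays only.

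IGF1 and IGF2 circulate bound to IGFBPs, which carry them, prolong their life and limit their access to receptors. INSR and IGF1R are tyrosine kinases that phosphorylate IRS1 and IRS2, and these recruit PI3K, which activates AKT; AKT in turn keeps FOXO transcription factors out of the nucleus. IGF2R, the cation-independent mannose 6-phosphate receptor, takes up IGF2 for degradation in lysosomes and does not signal through IRS proteins. In liver, FOXO factors are known to switch on IGFBP1 and IRS2 when insulin is low, and IGFBP1 is a classic insulin-repressed gene.

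Values are MAS5 signals, in arbitrary units on a linear scale. A difference is log2 signal in hepatospheres minus differentiated cells. The floor was a signal of 84.1, the higher of the median signals of the arrays; a reading under it was set to it, so a fold against such a reading is a lower bound and is written "at least". The brightest probe set (by mean log2 signal over the arrays) stands for a gene unless another is named. By this measure 9 of the 10 genes came up to the floor on 1 array or both, and 3 were at least 2-fold higher in hepatospheres: IGFBP2, IGFBP3 and IRS2. Of all 12766 genes that reached the floor, 12.5% were that much higher. IGF1R was the 1 member at least 2-fold lower, where 8.83% of all genes were. The other 5 measured members lay within 2-fold, and the median of the 9 was 0.63 against 0.05 over all genes. Counted by probe set, 20 of the 25 reached the floor; 5 of these were at least 2-fold higher, against 11.4% of all probe sets that reached it, and 2 were at least 2-fold lower, against 9.23%.

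**Figure D1:**
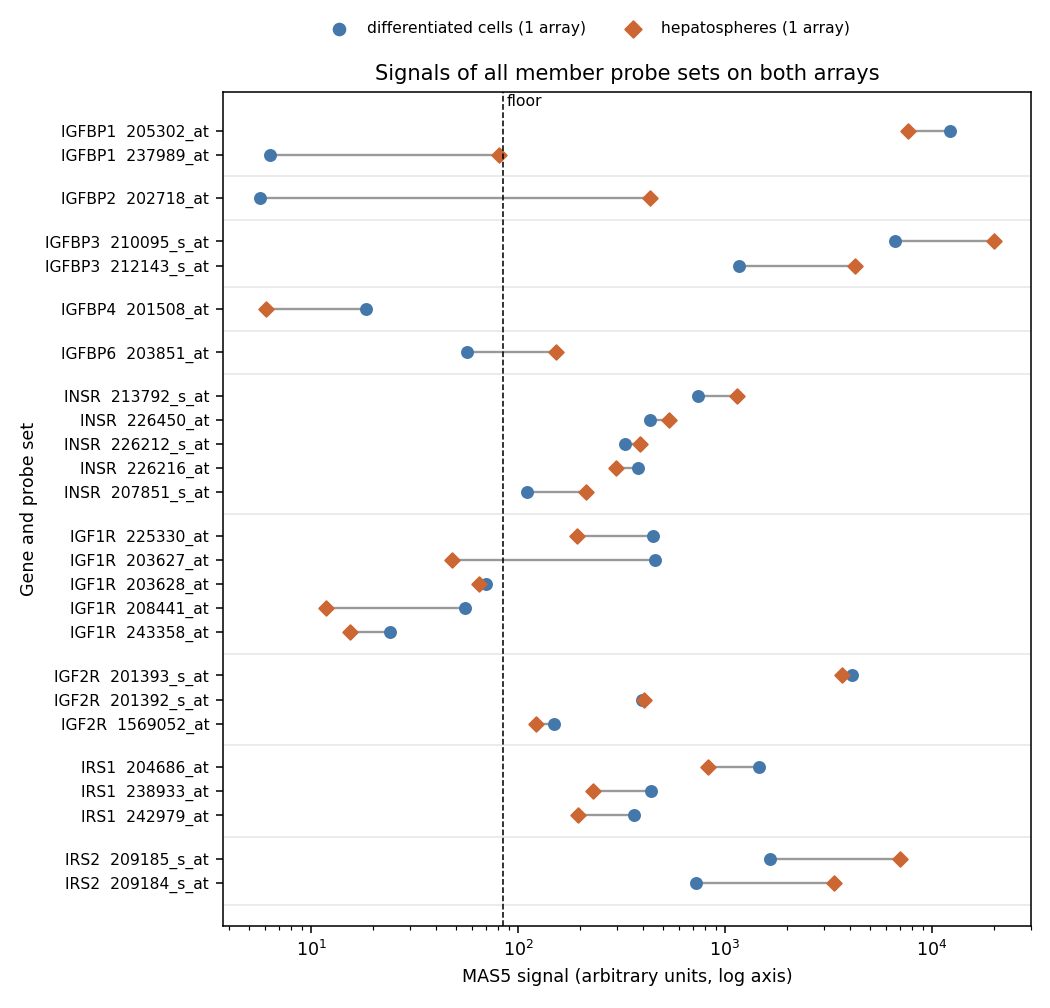
MAS5 signal (arbitrary units, log axis) of each of the 25 member probe sets in differentiated cells (circles) and hepatospheres (diamonds), 1 array each, with the floor of 84.1 as a dashed line. Both IRS2 and both IGFBP3 probe sets lie to the right in hepatospheres, all 3 IRS1 probe sets and both IGF1R probe sets that reached the floor lie to the left, and the IGF2R pairs nearly coincide.

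The 2 substrates of the receptors went opposite ways. IRS2, the substrate that carries much of insulin's signal in liver, read 1641 in differentiated cells against 7026 in hepatospheres, 4.28-fold higher. Its other probe set read 727 and 3375, 4.64-fold higher, so the 2 IRS2 differences, 2.10 and 2.22 on the log2 scale, were only 0.12 apart. For comparison, genes with exactly 2 probe sets above the floor on both arrays (2961 genes) had a median gap of 0.37 between them. Among 11063 genes with both readings above the floor, the IRS2 difference ranked 222 from the top. IRS1, the homologous adaptor, read 1459 in differentiated cells against 828 in hepatospheres, a difference of -0.82. Its 2 dimmer probe sets read 437 and 364 in differentiated cells against 229 and 196 in hepatospheres. All 3 IRS1 probe sets were thus lower in hepatospheres, by 1.76-fold to 1.90-fold, and none reached 2-fold with the deposited scaling. IRS1 did pass 2-fold lower with median centring (-1.07) and with scaling to the poly(A) control RNAs (-1.85). The 3 probe sets were 0.11 apart, where genes with exactly 3 such probe sets (1403 genes) had a median range of 0.65.

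The gap between the IRS2 and IRS1 differences was 2.92 on the log2 scale, or 7.54-fold, and over the 6 pairs of their probe sets it ran from 2.92 to 3.14. A gap between 2 differences is the same under any scaling that multiplies a whole array by a constant. Sequence just before the start of both genes is shown because the substrates went opposite ways, beside that of IGFBP3 and IGF1R, the members 2-fold apart in each direction on probe sets above the floor on both arrays. The stretches are the 250 bases before the gene start from RefSeq (GRCh38.p14), 5′ to 3′ on the gene's strand: IRS2 at chr13:109786584-109786833 (minus), IRS1 at chr2:226799821-226800070 (minus), IGFBP3 at chr7:45921273-45921522 (minus) and IGF1R at chr15:98648289-98648538 (plus). Capitals mark any of 5 short motifs on either strand, overlaps included: TGTTTAC (bound by FOXO factors), CAAAACA (the core of insulin response elements, also a FOXO site, TGTTTTG on the other strand), ACGTG and GCGTG (cores of hypoxia response elements) and GGGCGG (an SP1 box, CCGCCC on the other strand).
IRS2: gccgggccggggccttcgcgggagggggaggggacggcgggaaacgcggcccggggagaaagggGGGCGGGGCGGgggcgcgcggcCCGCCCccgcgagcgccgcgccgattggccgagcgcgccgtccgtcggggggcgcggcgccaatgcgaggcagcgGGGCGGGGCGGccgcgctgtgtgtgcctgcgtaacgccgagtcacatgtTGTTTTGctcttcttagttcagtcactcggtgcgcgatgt
IRS1: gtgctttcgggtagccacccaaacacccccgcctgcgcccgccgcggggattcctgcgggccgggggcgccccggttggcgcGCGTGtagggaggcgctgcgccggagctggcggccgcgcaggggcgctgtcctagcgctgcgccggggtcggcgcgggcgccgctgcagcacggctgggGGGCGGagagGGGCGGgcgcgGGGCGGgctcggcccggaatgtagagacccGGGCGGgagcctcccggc
IGFBP3: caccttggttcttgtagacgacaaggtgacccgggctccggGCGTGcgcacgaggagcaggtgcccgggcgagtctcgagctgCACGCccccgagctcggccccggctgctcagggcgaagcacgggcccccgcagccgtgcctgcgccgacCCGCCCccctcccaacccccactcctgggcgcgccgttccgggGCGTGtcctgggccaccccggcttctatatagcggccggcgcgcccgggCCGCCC
IGF1R: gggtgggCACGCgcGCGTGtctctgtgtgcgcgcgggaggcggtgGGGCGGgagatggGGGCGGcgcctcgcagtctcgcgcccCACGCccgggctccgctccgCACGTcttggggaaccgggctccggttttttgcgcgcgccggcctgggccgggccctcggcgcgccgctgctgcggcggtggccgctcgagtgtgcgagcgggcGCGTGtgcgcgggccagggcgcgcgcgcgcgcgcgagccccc

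The table of such windows held 9 of the 10 members, in 11 windows. IGFBP1 was not among them, so its sequence was not searched for any of these motifs. The insulin response core stood once in the IRS2 window, as TGTTTTG starting 40 bases before the start, and in 0 windows of the other members held; 4.30% of 35116 windows of this length carry it. The FOXO motif TGTTTAC was seen only in the IGFBP6 window among the members, against 2.98% of all windows. GCGTG occurred 3 times in the IGFBP3 window, 4 times in that of IGF1R and once in that of IRS1, and 32.2% of all windows hold at least 1 copy. A window of IGFBP2 holds 1 copy of GCGTG as well. ACGTG, in 18.5% of all windows, occurred once in the IGF1R window and 6 times in that of IGF2R, where 3 copies of CACGTG each match on both strands, and in no other member's window held. SP1 boxes numbered 5 in the IRS2 window, 4 in that of IRS1 and 2 in each of the others shown, against at least 1 copy in 42.6% of all windows. In the windows not shown there were 6 for IGF2R, 4 for INSR, 1 each for IGFBP4 and IGFBP6, and 1 in each of 2 of the 3 IGFBP2 windows. These matches describe letters and do not show binding.

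Among the binding proteins, IGFBP3, the main carrier of circulating IGFs and a protein that can also restrain growth by itself, was bright on both arrays. It read 6598 in differentiated cells against 20016 in hepatospheres, 3.03-fold higher. Its second probe set read 1166 and 4257, 3.65-fold higher, and the 2 differences were 0.27 apart. IGFBP3 ranked 449 from the top among genes above the floor on both arrays. IGFBP1, the insulin-repressed binding protein made chiefly by hepatocytes, went the other way by less than 2-fold, from 12166 to 7687 (a difference of -0.66). Its other probe set stayed under the floor on both arrays, at 6.32 and 80.9, so the IGFBP1 value rests on 1 probe set.

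IGFBP2, a binding protein raised in fetal liver and in many tumours, read 5.64 in differentiated cells against 436 in hepatospheres. The first of these lies far under the floor, and IGFBP2 was at least 5.19-fold higher in hepatospheres on its single probe set. IGFBP6, which prefers IGF2 over IGF1, read 56.8 and 152, at least 1.81-fold higher. IGFBP4, an inhibitory binding protein, read 18.5 and 6.04 and was under the floor on both arrays, so no fold is given. Only IGFBP3 and IGFBP1 were above the floor on both arrays, and they went opposite ways. IGFBP2 and IGFBP6 reached it in hepatospheres alone, so by this measure they could only read higher. With the arrays scaled to their poly(A) control RNAs these directions held, but IGFBP3 stood at 0.57, under 2-fold, IGFBP6 at 0.08, and IGFBP1 at -1.69, more than 2-fold lower.

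IGFBPs are also products of stromal cells, so genes known as markers of other cell types were read on the same arrays. Both arrays are of cultures of 1 carcinoma line, and these genes are given as transcripts, not as a measure of other cell types. Of 6 fibroblast genes 4 reached the floor and 2 were at least 2-fold higher in hepatospheres, LUM at 1.1 against 2677 and COL3A1 at 42.6 against 679. The second LUM probe set was under the floor on both arrays. COL1A1 and DCN lay within 2-fold, at 0.70 and 0.72 (the latter a bound). COL1A2 and PDGFRB were under the floor on both arrays. The summed signal of the 6 genes was 427 in differentiated cells and 4067 in hepatospheres, and the brighter LUM probe set alone gave 2677 of the 4067. The part of this difference in the IGFBP2, IGFBP3 and IGFBP6 values was not tested. Leukocyte genes reached the floor in 0 of 4 cases (summed signal 169 and 104), and of 4 endothelial genes only PECAM1 did, at 3388 and 3787 (summed signal 3452 and 3854). Liver markers were present: 9 of 9 hepatocyte and liver tumour genes reached the floor, with a summed signal of 103186 in differentiated cells and 117229 in hepatospheres. Past 2-fold, 2 of these 9 genes read higher and 3 lower in hepatospheres (median -0.22): ALB and TTR stood at 1.44 and 2.49, and GPC3, AFP and KRT8 at -3.05, -2.50 and -1.11. A change in the share of cells that make a transcript and a change in its RNA per cell cannot be told apart in such bulk RNA.

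IGFBP1 and IGFBP3 lie next to each other on chromosome 7, and their differences were 2.26 apart on the log2 scale. Of the 20 nearest named genes, 10 on each side in RefSeq order, 12 reached the floor. Their median was -0.41, with 3 at least 2-fold lower and 1 at least 2-fold higher, where 8.83% and 12.5% of all genes were. The lower ones were TNS3, the neighbour of IGFBP3, at -1.54, CCM2 at -1.06 and H2AZ2 at -1.04, and the higher one was ADCY1, at 81.9 and 270 and so a bound; these 4 were picked out after their values were seen. Of the 12 measured neighbours 9 read lower, against 47.3% of all genes that reached the floor. These signs are relative to the deposited scaling, and scaling to the poly(A) controls moves each difference with both readings above the floor down by 1.03.

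**Figure D2:**
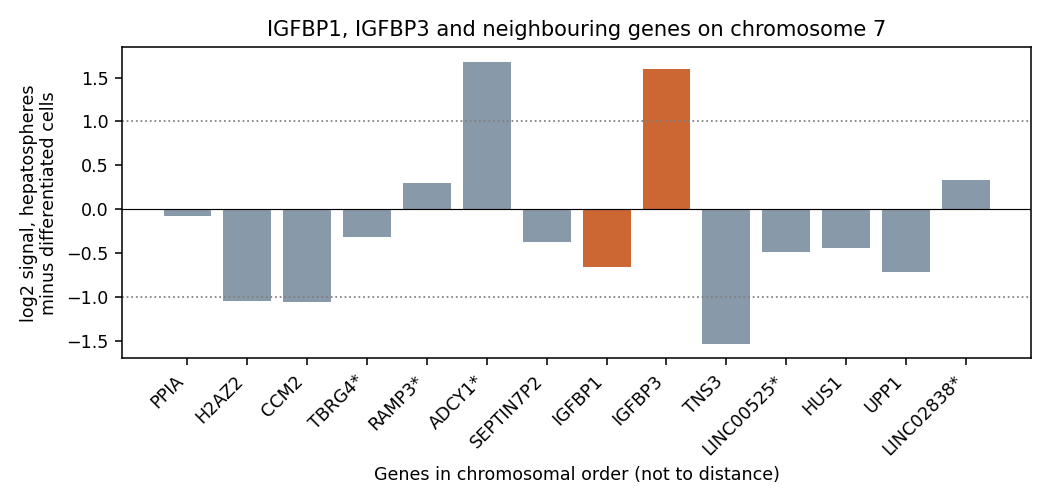
Log2 signal in hepatospheres minus differentiated cells for IGFBP1, IGFBP3 (orange) and the 12 of their 20 nearest named neighbours on chromosome 7 that reached the floor (grey), in gene order with distances not to scale; dotted lines mark 2-fold, and an asterisk marks a gene above the floor on 1 array only, whose bar is a bound. IGFBP3 stands at 1.60 beside IGFBP1 at -0.66 and TNS3 at -1.54, with the deposited scaling; scaled to the poly(A) controls IGFBP3 stands at 0.57.

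Of the 3 receptors, 1 was at least 2-fold apart. IGF1R, the receptor for IGF1 and IGF2, read 448 in differentiated cells against 192 in hepatospheres, 2.34-fold lower. A second IGF1R probe set read 459 and 48.1, at least 5.46-fold lower. The 3 others were under the floor on both arrays, at 24.2 to 69.8 in differentiated cells and 11.8 to 64.5 in hepatospheres. The 2 probe sets that reached the floor both read lower in hepatospheres, but the size depended on the probe set. The brightest ranked 645 from the bottom among genes above the floor on both arrays. With the mean over all 5 probe sets IGF1R stood at -0.73, but the 3 under the floor count as 0 in that mean. With log2 of signal plus floor it stood at -0.95. Both values are under 2-fold.

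INSR, the insulin receptor, read 741 in differentiated cells against 1149 in hepatospheres on its brightest probe set, a difference of 0.63. Of its 5 probe sets, all above the floor on both arrays, 4 read higher and 1 lower, from -0.35 to 0.94. That range of 1.30 compares with a median range of 1.07 over the 178 genes with exactly 5 such probe sets. With the poly(A) scaling INSR turned to -0.40, so no direction is given for it. The INSR difference was 1.86 above that of IGF1R on the brightest probe sets, and 0.87 to 2.17 above it over the 5 pairs of probe sets above the floor on both arrays.

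IGF2R, the scavenger receptor for IGF2, was the member nearest to equal signals. It read 4112 in differentiated cells against 3656 in hepatospheres, a difference of -0.17, and its other probe sets stood at 0.04 and -0.30. The 3 probe sets were 0.34 apart. Relative to the poly(A) controls it stood at -1.20, 2-fold lower, together with 46.5% of all genes.

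**Figure D3:**
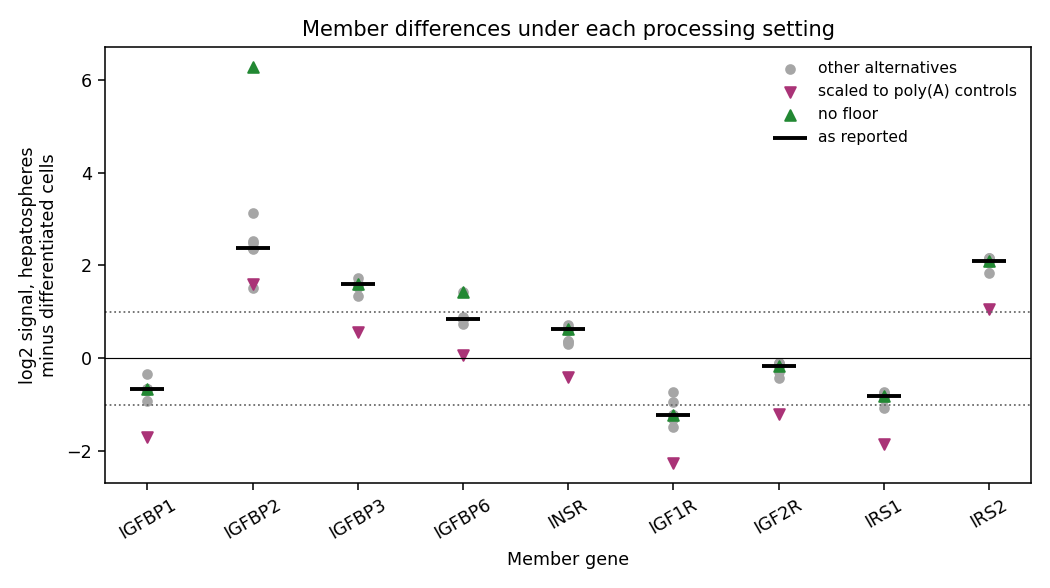
Log2 signal in hepatospheres minus differentiated cells for the 9 measured members as reported (black bars) and under up to 10 processing alternatives (symbols); dotted lines mark 2-fold. IRS2 runs from 1.07 to 2.17 and IGFBP2 from 1.52 to 6.27 over the alternatives that measured them, IGF1R from -2.25 to -0.73, and INSR turns to -0.40 when scaled to the poly(A) controls.

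Other genes of the pathway were read as lists by their function. None of the ligands and carriers reached the floor: INS read 2.5 in differentiated cells against 5.0 in hepatospheres, IGF1 read 9.8 and 55.1, and IGFALS, IGFBP5 and IGFBP7 were under the floor as well, while IGF2 was not analysed here. Of the IGFBP proteases and their inhibitors, 6 of 8 reached the floor, 1 was at least 2-fold higher and 0 lower (median 0.46). The higher one was HTRA1, a secreted serine protease that can cleave IGFBPs, which went from 104 in differentiated cells to 981 in hepatospheres (9.46-fold). PAPPA2, a metalloprotease that cuts IGFBP3 and IGFBP5, stood at -0.48, and the stanniocalcins STC1 and STC2, which inhibit such proteases, at 0.50 (a bound) and 0.47. PAPPA2 and STC2 each had another probe set of the opposite sign.

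The IGF2 mRNA-binding proteins, fetal RNA-binding proteins that stabilise transcripts, were 0 higher and 0 lower by 2-fold of 3 (median -0.82). IGF2BP1 read 1514 in differentiated cells against 778 in hepatospheres (-0.96), IGF2BP3 stood at -0.82, and IGF2BP2 at 0.05. All 3 IGF2BP1 probe sets and all 3 IGF2BP3 probe sets that reached the floor read lower, the latter down to -1.70.

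Of the adaptors and brakes acting at the receptors, 13 of 14 reached the floor, 2 were at least 2-fold higher and 0 lower (median 0.16). ENPP1, a membrane phosphodiesterase that inhibits INSR, read 688 and 1735, 2.52-fold higher. SOS1, the exchange factor that links receptors to RAS, was 2.08-fold higher, although its probe sets ran from -0.37 to 1.06. SH2B2, an adaptor of INSR, stood at 0.84 and PTPN1, the phosphatase that switches INSR off, at 0.82. From PI3K to AKT, 10 genes reached the floor of 11 read, and 0 were 2-fold apart in either direction (median 0.04). The largest were PIK3CD at 0.94, PHLPP2 at -0.59, PIK3CB at 0.48 and PIK3R1 at -0.37. In the mTOR branch 10 of 10 reached the floor with 1 higher and 0 lower (median -0.20). DEPTOR, an inhibitor bound to both mTOR complexes, read 120 and 619, 5.15-fold higher, while RPTOR stood at -0.74, MTOR at -0.57 and MLST8 at -0.49.

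FOXO factors and genes they are known to induce reached the floor in 13 of 13 cases, with 4 at least 2-fold higher and 1 lower (median 0.44). The higher ones were PDK4, which restrains pyruvate oxidation (62.3 and 8343, at least 99.2-fold), PCK1 of gluconeogenesis (138 and 2740, 19.9-fold), TXNIP, an inhibitor of glucose uptake (136 and 1794, 13.2-fold), and CCNG2, a cyclin that slows the cell cycle (389 and 1612, 4.15-fold). These folds are of the brightest probe sets. The 3 TXNIP probe sets ran from 0.90 to 3.72 on the log2 scale and the 3 of PDK4 from 2.86 to 6.63. The lower one was KLF15, at -1.44, named after its value was seen. Below 0 in this list were also G6PC1, the last step of glucose release, at -0.95 and PPARGC1A at -0.43. IRS2 and IGFBP1 are known FOXO-induced genes too but were not counted in this list. The FOXO genes ran from FOXO1 at -0.64 to FOXO4 at 0.96 and FOXO6 at 0.96 (a bound).

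Genes of insulin-induced metabolism reached the floor in 8 of 10 cases, with 2 higher and 0 lower (median 0.32). PNPLA3, a lipid droplet enzyme, was 4.82-fold higher at 227 and 1094, and the fatty acid synthase FASN was 2.77-fold higher at 2209 and 6122. SREBF1, the lipogenic transcription factor that insulin induces, stood at 0.89 and ACACA at 0.69. GYS1, GSK3A, GSK3B and SLC2A1 lay between -0.40 and -0.04. Genes known to be raised by FOXO when insulin is low and genes known to be raised by insulin were thus both represented among those 2-fold higher. With the deposited scaling, counts in every list are to be read against the 12.5% of all genes higher and 8.83% lower. Scaled to the poly(A) controls, all 10 of the pathway genes counted as higher stayed above 0 and 7 of them at least 2-fold. Staying near or above 0 was nearly fixed by their choice as 2-fold higher. That scaling moves a difference with both readings above the floor down by 1.03, close to 2-fold. ENPP1 stood at 0.30, SOS1 at 0.03 and FASN at 0.44. With that scaling the median of each of these lists was below 0 and 28 of the 63 measured genes were at least 2-fold lower. Of all genes, 46.5% were at least 2-fold lower with it, and the all-gene median was -0.93.

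**Figure D4:**
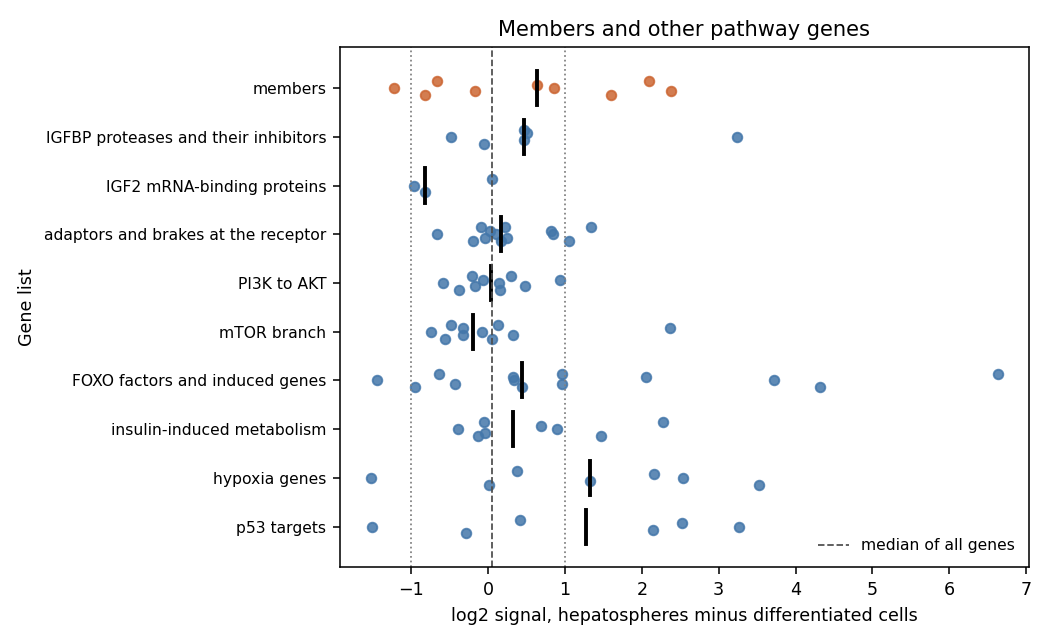
Log2 signal in hepatospheres minus differentiated cells for each gene that reached the floor, for the members (orange) and for other pathway lists (blue), with black bars at list medians, a dashed line at the median of all genes (0.05) and dotted lines at 2-fold. The members run from -1.22 to 2.38 around a median of 0.63, the PI3K to AKT genes all lie within 2-fold, and FOXO and hypoxia genes reach furthest right.

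Some features of the arrays bear on all of these values. The poly(A) control RNAs read 2.04-fold higher on the hepatosphere array, and scaling to them gives the all-gene median as -0.93, while median centring gives -0.19. The 18 hybridisation control probe sets differed by only 0.12 to 0.28. The 3′ to 5′ signal ratio of ACTB was 1.48 in differentiated cells and 2.64 in hepatospheres, while that of GAPDH was 0.99 and 1.04. Of the 25 member probe sets 9 have names ending in _s_at, which in Affymetrix naming marks probes shared by several transcripts, and both probe sets of IRS2 and both of IGFBP3 are among them. Their part in the differences was not tested.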

How the data were processed

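Total RNA of 2 PLC/PRF/5 cultures was isolated by Trizol and biotin-labelled (per the labels' protocols), and the arrays were grouped by source name. The authors deposited a linear intensity, the MAS5 signal, for each probe set; the method is taken from the submitters' processing notes, with its version and scaling target not given in the sources used here. MAS5 subtracts background and scales each array globally, so weak signals are noisy and the bulk of genes is set equal. Depth has no meaning here, and precision is limited by the number of arrays.

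Of 54675 probe sets, 62 were controls, 41091 paired with 1 symbol in GEO's platform annotation, 1801 with several and 11721 with none; the first kind was named. All 10 members matched RefSeq (GRCh38.p14) by symbol. Signals under the floor (the higher of the arrays' 50th percentiles, 84.1) were set to it, and differences are of log2 signal. Called means 2-fold apart. The members and lists were chosen with earlier results of these data known. Named genes are all members, the ligands and up to 4 genes of each list with the largest differences. KLF15, G6PC1, PPARGC1A, the FOXO genes, GYS1, GSK3A, GSK3B, SLC2A1, VEGFA, BNIP3, EGLN3 and the liver markers named were added after their values were seen. Alternatives were median centring, quantile normalization, loess (span 0.3), scaling to 24 poly(A) control probe sets, a lower floor (40th percentile), a higher one (60th) or none, adding the floor to the signal before log2, averaging probe sets, and leaving out shared-sequence probe sets. The procedure was tested on simulated data without noise, with known folds put into bright genes only. Such data do not test weak or noisy signals. Tools were Python 3.11.15, numpy 2.4.6, pandas 2.3.3, statsmodels 0.14.6 and matplotlib 3.10.9.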

Additional observations from a re-analysis of the deposited data

How the results depend on the processing

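The count of members at least 2-fold higher (3 as reported) was 2 with scaling to the poly(A) controls and 4 with no floor or one at the 40th percentile. It was 1 without shared-sequence probe sets, which leaves IGFBP3 and IRS2 without any probe set and 7 members measured. Of all genes, 3.22% were that much higher with the poly(A) scaling, 21.4% with no floor, 13.7% at the 40th percentile and 12.7% without shared-sequence probe sets. The count at least 2-fold lower (1) was 2 with median centring and with no floor, and 4 with the poly(A) scaling. The shares of all genes that much lower were 14.6%, 12.3% and 46.5%. The count was 0 with log2 of signal plus floor and with the mean over probe sets, where the shares were 7.06% and 6.03%. In that mean a probe set under the floor on both arrays counts as 0. The median member difference (0.63) turned to -0.40 with the poly(A) scaling and to -0.30 without shared-sequence probe sets. The all-gene medians with these settings were -0.93 and 0.04. It was 0.38 with median centring, 0.66 with quantile normalization, 0.71 with loess, 0.23 with no floor or one at the 60th percentile, 0.58 with log2 of signal plus floor and 0.35 with the mean over probe sets; at the 40th percentile it stayed at 0.63. IGFBP2 was at least 2-fold higher in 10 of 10 alternatives, IRS2 in 9 of the 9 that measured it, IGFBP3 in 8 of 9, and IGF1R was at least 2-fold lower in 8 of 10. Some alternatives could not move these genes. A lower floor, a higher one or none left IRS2, IGFBP3 and IGF1R unchanged. Averaging probe sets or leaving out shared-sequence ones left IGFBP2, with its single probe set, unchanged. All alternatives use the same arrays, so these tallies do not measure repeatability. Of all genes 2-fold apart, 58.7% were higher as reported, 38.3% with median centring and 6.47% with the poly(A) scaling. The cause of these shifts was not tested. No paired analysis was possible because each group has 1 array. Signal over the floor limits IGFBP2, IGFBP4 and IGFBP6.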

Other observations

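IGFBP3 is known as a target of both p53 and hypoxia, and IGFBP1 of hypoxia, so short lists of such genes were read as well. Of 7 hypoxia genes measured, 4 read 2-fold higher or more in hepatospheres and 1 lower (median 1.32), where 12.5% and 8.83% of all genes were. Both lists were chosen with earlier results of these data known, so these shares are not a neutral standard for them. BNIP3 stood at 0.38, and EGLN3 at 0.01 on its brightest probe set and 2.11 on its other. ANKRD37 read 245 in differentiated cells and 2818 in hepatospheres, NDRG1 1756 and 10199, and the peptide hormone gene ADM 1814 and 8110. VEGFA, the angiogenic growth factor, stood at 1.32 with all 4 probe sets higher. The glucose transporter SLC2A3 was lower, at 599 and 209. Of 6 p53 targets measured, 3 were at least 2-fold higher and 1 lower (median 1.28). CDKN1A, the cell cycle inhibitor p21, read 159 and 1528, and TP53INP1 320 and 1841. GDF15, a stress-induced cytokine, stood at 2.14 on its brightest probe set, with others down to 0.28. MDM2, the ubiquitin ligase that degrades p53, stood at -1.51 on its brightest probe set, but its 6 probe sets that reached the floor ran from -1.51 to 1.11.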
